A study of Mus musculus with 3 samples.

Results

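The 7 genes described here encode the keratins of simple epithelia (Krt7, Krt8, Krt18, Krt19, Krt20 and Krt23) and vimentin (Vim), the intermediate filament protein of endothelial and mesenchymal cells. They were taken by symbol from tables of 24091 genes, each symbol having exactly 1 row. The RNA came from C57BL/6 mouse large intestine, from cells sorted as lymphatic endothelium on CD31, podoplanin and LYVE1. The samples form 1 group of 3 libraries, called replicates 1, 2 and 3, with no control, treatment or age given. Whether each library had its own animal is not labelled, and the variation among them could be technical.

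Intermediate filaments are the strain-bearing fibres of the cytoplasm. Keratin filaments form only from pairs of a type I and a type II chain: Krt7 and Krt8 encode type II chains, and Krt18, Krt19, Krt20 and Krt23 type I chains. Vimentin, a type III protein, assembles with itself. Keratin 8 pairs with keratins 18, 19 and 20 in intestinal epithelium, while endothelial cells, fibroblasts and leukocytes build their filaments mostly from vimentin. The genes therefore set an epithelial filament system against the one that sorted lymphatic endothelium is known for.

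The promoter windows of 4 of the genes are shown: Krt8 and Krt18 are neighbours whose levels differed, and Krt20 and Vim were the members that varied most between libraries. No window was available for Krt19, and no result on levels uses these sequences. Each sequence is the 250 bases before the annotated start, from RefSeq on GRCm38.p6 (the assembly of mm10), 5′ to 3′ on the strand of the gene. Capitals mark the letters TATAAA, searched on both strands together with GGGCGG.
Krt8, chr15:102004343-102004592, minus strand: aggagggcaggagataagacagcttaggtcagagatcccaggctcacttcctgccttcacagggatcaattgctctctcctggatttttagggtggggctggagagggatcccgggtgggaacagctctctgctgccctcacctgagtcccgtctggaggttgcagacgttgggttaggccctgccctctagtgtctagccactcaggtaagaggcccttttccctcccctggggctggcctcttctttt
Krt18, chr15:102027966-102028215, plus strand: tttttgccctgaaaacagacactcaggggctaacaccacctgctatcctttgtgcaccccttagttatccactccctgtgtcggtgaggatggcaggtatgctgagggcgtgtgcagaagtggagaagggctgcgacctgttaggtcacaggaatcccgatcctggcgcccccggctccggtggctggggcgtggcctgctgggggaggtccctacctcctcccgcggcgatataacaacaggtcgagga
Krt20, chr11:99438154-99438403, minus strand: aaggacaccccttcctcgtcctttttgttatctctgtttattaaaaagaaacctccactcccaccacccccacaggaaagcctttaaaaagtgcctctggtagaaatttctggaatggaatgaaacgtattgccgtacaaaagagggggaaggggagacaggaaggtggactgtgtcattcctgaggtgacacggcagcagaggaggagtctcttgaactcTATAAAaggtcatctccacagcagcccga
Vim, chr2:13574061-13574310, plus strand: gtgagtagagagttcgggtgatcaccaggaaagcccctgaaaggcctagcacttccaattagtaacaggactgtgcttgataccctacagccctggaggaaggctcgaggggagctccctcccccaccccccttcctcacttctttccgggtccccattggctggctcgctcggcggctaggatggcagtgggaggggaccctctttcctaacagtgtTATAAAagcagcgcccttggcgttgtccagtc
TATAAA stood 29 bases before the start of Krt20 and 32 bases before that of Vim, on the gene's own strand. It was not found in the windows of Krt8 and Krt18, nor in those of Krt7 and Krt23. Of 32851 promoter windows of this length, 12.4% held TATAAA and 32.7% held GGGCGG in either orientation. GGGCGG was found in none of the 4 windows shown, and at 4 places in that of Krt7. The starts of Krt8 and Krt18 lie 23874 bases apart and point away from each other. A match to these letters is a description of the sequence only.

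Values are in TPM, by definition a transcript abundance scaled for length and library size, and levels are set side by side between genes on that basis. How these TPM values were computed is not given, so the basis could not be checked. Each library's values summed to between 999896 and 999939. TPM keeps no sequencing depth, so no counting error is given. Genes at 1 TPM or above in every library are called expressed here: there were 12862 of them (53.4%), all 7 members included. Library scaling by median of ratios would move the values of replicate 1 by 0.14 on the log2 scale and those of replicates 2 and 3 by -0.083 and -0.068. Scaled results are given for some member levels and list counts. Summed levels and single marker genes are given by TPM only, and their order between libraries could change with scaling. Ratios within a library do not depend on it.

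Keratin transcripts far outweighed vimentin transcripts in these libraries, and mainly through Krt8 and Krt19. Krt8 averaged 3760.2 ± 386 TPM and Krt19 3456 ± 135, against 636 ± 121 for Vim (SD, n = 3). The other keratins lay below Vim in every library: Krt18 averaged 483 ± 40.1 TPM, Krt20 246 ± 72.6, Krt7 194 ± 12.9 and Krt23 10.3 ± 1.12. Thus 2 of the 6 keratins exceeded Vim in all 3 libraries, where 1.56% of expressed genes did so, and 4 of the 6 lay under Vim in all 3, as did 97.9% of expressed genes.

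**Figure D1:**
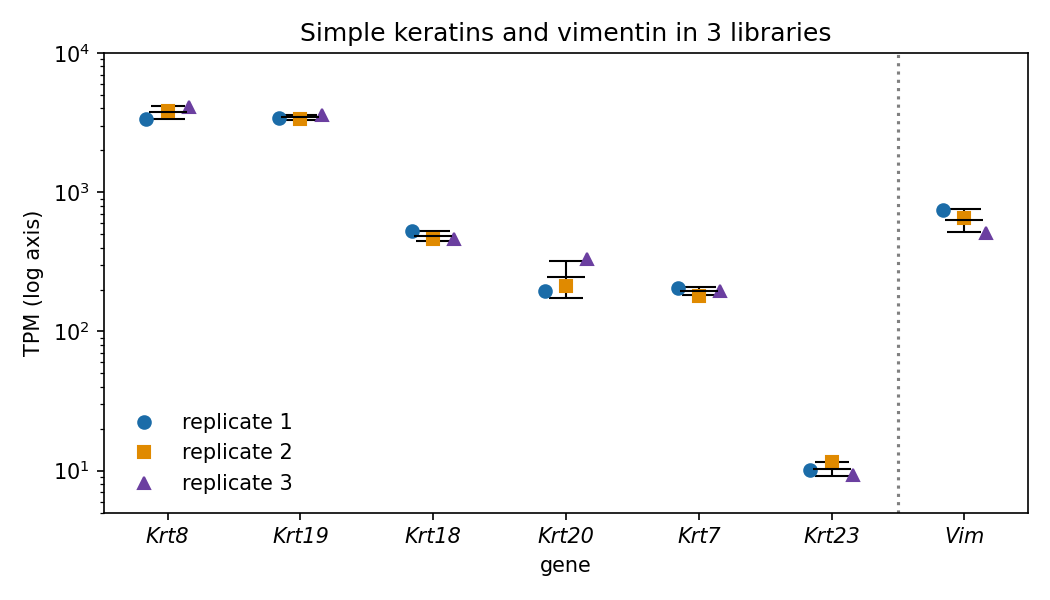
TPM of the 6 keratins and of Vim (x axis, genes; y axis, TPM on a log axis) in replicates 1, 2 and 3, with the mean and SD as black bars (n = 3). Krt8 and Krt19 sit at 3354 TPM or more in every library, Krt18, Krt20 and Krt7 between 181 and 529, Krt23 between 9.34 and 11.6 and Vim between 509 and 750.

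The type II chains were led by Krt8, the main type II keratin of simple epithelium (Entrez 16691, chromosome 15, 101996711 to 102004342). Krt8 had 3354, 3806 and 4121 TPM in replicates 1, 2 and 3. It ranked 37th, 21st and 18th of all genes in the tables. Its place as highest in replicate 3 held after median-of-ratios scaling, but its highest value was then 1.09 times the lowest, against 1.23 times by TPM. Krt7, a type II keratin best known from ducts and glands (Entrez 110310, chromosome 15, 101412403 to 101427806), had 207, 181 and 195 TPM. Within a library, Krt7 was 16.2-fold to 21.1-fold lower than Krt8.

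The type I chains were led by Krt19, the smallest keratin, which lacks the tail domain of the others (Entrez 16669, chromosome 11, 100140810 to 100145926). Krt19 had 3390, 3367 and 3612 TPM in replicates 1, 2 and 3, the smallest relative spread of the 7 genes by TPM, with a coefficient of variation of 3.92%. After median-of-ratios scaling it was 7.97%, above the 4.65% of Krt8. Krt18, the classical partner of keratin 8 (Entrez 16668, chromosome 15, 102028216 to 102032026), had 529, 460 and 460 TPM. Krt8 exceeded Krt18 6.33-fold, 8.28-fold and 8.96-fold, a mean difference of 2.96 ± 0.26 on the log2(TPM + 1) scale (SD, n = 3). Krt8 and Krt19, in contrast, were nearly level, at a Krt8 to Krt19 ratio of 0.989, 1.13 and 1.14.

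Krt20, the type I keratin of differentiated cells at the top of intestinal crypts (Entrez 66809, chromosome 11, 99428385 to 99438153), had 196, 213 and 330 TPM. Its replicate 3 stood apart from the other libraries, and by TPM the gene varied more than any other member, with a highest value 1.68 times the lowest. After median-of-ratios scaling Vim varied more, with a highest value 1.70 times the lowest, against 1.56 times for Krt20. Krt23, a less studied type I keratin (Entrez 94179, chromosome 11, 99477973 to 99493120), had only 10.1, 11.6 and 9.34 TPM. It stood at percentile 35.8 ± 4.17 of the expressed genes (16.2 at a TPM minimum of 5 and 65.7 among all genes), while the other 6 members stood at percentile 94.5 or above on average.

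Summed by type, the type I and type II chains were nearly balanced. The 4 type I genes added up to 4125, 4051 and 4411 TPM and the 2 type II genes to 3560, 3987 and 4316 TPM. The ratio of type I to type II was 1.16, 1.02 and 1.02, a mean of 1.07 ± 0.081 (SD, n = 3). Krt8 and Krt19 made up 87.7%, 89.2% and 88.6% of the keratin TPM, so the balance rested on this pair. With the mean of log2(TPM + 1) per gene in place of the sum, type I lay below type II, at -1.72 on the log2 scale. The balance is one of transcripts and was not measured for protein.

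Relative to Vim, every keratin was highest in replicate 3, where Vim itself was lowest. The same held for 91% of the other expressed genes, so this order is not particular to the keratins. Vim (Entrez 22352, chromosome 2, 13574311 to 13582826) had 750, 649 and 509 TPM in replicates 1, 2 and 3. Krt8 stood 4.47-fold, 5.86-fold and 8.10-fold above it. Krt19 stood 4.52-fold, 5.19-fold and 7.09-fold above it. The ratio of Krt18 to Vim was 0.706, 0.708 and 0.904, so these levels were close in replicate 3. The ratio of Krt20 to Vim was 0.262, 0.329 and 0.648, that of Krt7 to Vim 0.276, 0.279 and 0.383, and that of Krt23 to Vim 0.0135, 0.0178 and 0.0184.

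**Figure D2:**
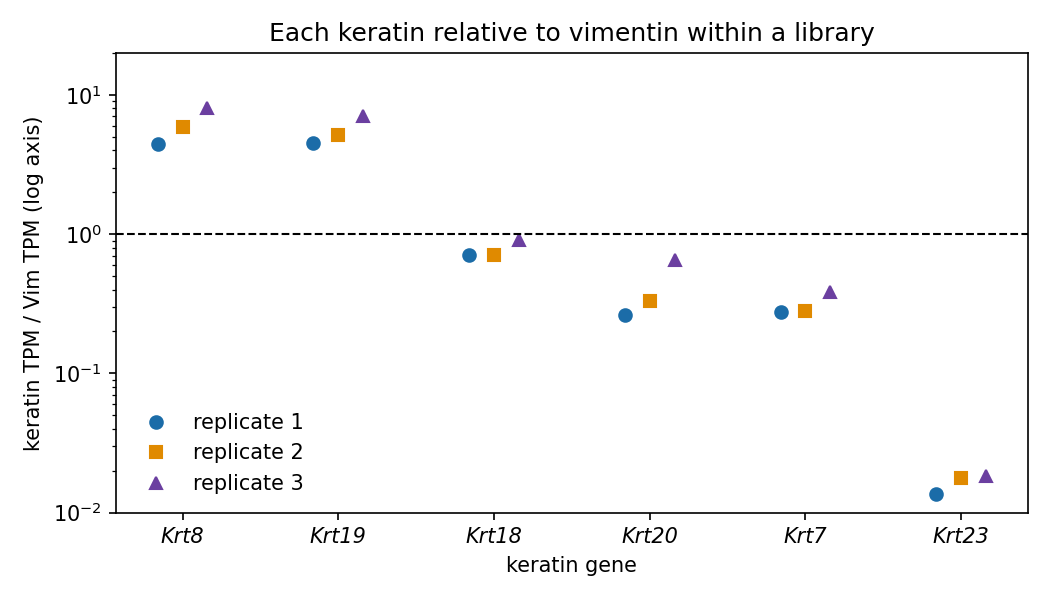
TPM of each keratin divided by that of Vim in the same library (x axis, keratin genes; y axis, ratio on a log axis), with 1 point per library and a dashed line where both are equal. Krt8 and Krt19 lie above the line in every library and the other 4 keratins below it, and replicate 3 gives the highest ratio for each of the 6.

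On the log2(TPM + 1) scale, the difference from Vim was 2.57 ± 0.43 for Krt8, 2.46 ± 0.33 for Krt19, -0.38 ± 0.20 for Krt18, -1.38 ± 0.68 for Krt20, -1.69 ± 0.27 for Krt7 and -5.80 ± 0.24 for Krt23 (SD, n = 3). Each of the 6 differences had the same sign in 3 of 3 libraries and exceeded its SD. Flipping the signs of the library differences (exact permutation test, two-sided) gave p = 0.25 for each, the smallest value that 3 libraries allow, so none can pass a threshold of 0.05. The 6 differences share the Vim values and are not independent.

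The 6 keratins together held 7686, 8038 and 8727 TPM, or 0.769%, 0.804% and 0.873% of all TPM, while Vim held 0.0750%, 0.0649% and 0.0509%. The keratin sum was 10.3-fold, 12.4-fold and 17.1-fold above Vim. This excess rests on the sum: the mean of log2(TPM + 1) over the 6 keratins minus that of Vim was -0.70 ± 0.35 (SD, n = 3).

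The spread between libraries differed among the members. The SD of log2(TPM + 1) was 0.40 for Krt20 and 0.28 for Vim, at percentile 96.2 and 91.9 of genes in the same bin of mean expression. It was 0.15 for Krt8, 0.14 for Krt23, 0.12 for Krt18, 0.096 for Krt7 and 0.056 for Krt19, at percentiles between 21.7 and 70.3. These percentiles depended on single libraries and on the scaling. Without replicate 3 the percentile of Krt20 was 48.0 and that of Vim 74.7. Without replicate 1 it was 1.46 for Krt18, 64.2 for Krt19 and 79.8 for Krt23, and without replicate 3 it was 4.17 for Krt19 and 68.9 for Krt7. Without replicate 2 it was 26.3 for Krt7 and 18.9 for Krt23. After median-of-ratios scaling Krt8 stood at percentile 12.5, Krt7 at 76.3, Krt18 at 75.7 and Krt23 at 47.1, while Vim stood at 95.4 and Krt20 at 93.7. Krt20 was highest and Vim lowest in replicate 3 under TPM and under median-of-ratios scaling alike. Krt7 and Krt18 were highest in replicate 1 and lowest in replicate 2 under both scalings, and Krt19 was highest in replicate 3 by TPM but in replicate 1 after scaling. Krt23 was highest in replicate 2 by TPM but in replicate 1 after scaling.

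Markers of cell types were read beside the members. All 12 genes of a colon epithelium list were expressed, with a summed level of 13060, 16229 and 17354 TPM in replicates 1, 2 and 3. All 11 genes of a lymphatic identity list were also expressed, at a summed 1692, 1771 and 984 TPM. Markers of the labelled cell type were thus present, at a lower summed level than the epithelial markers. Lyve1, Mmrn1 and Reln were the most abundant of the list. Prox1, a lymphatic transcription factor, was the lowest, with 3.27, 4.82 and 2.63 TPM. In such pooled RNA, fewer cells of a type and less RNA per cell cannot be told apart. The most abundant epithelial markers were Car1, a carbonic anhydrase, at 4737 ± 1613 TPM, Lgals4, a galectin, at 3590.1 ± 233 and Phgr1 at 1844 ± 177 (SD, n = 3).

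The ratios of Krt8 and Krt19 to epithelial markers were compared between libraries. Per Epcam, the epithelial cell adhesion molecule, Krt8 stood at 3.05, 3.27 and 3.55 and Krt19 at 3.08, 2.89 and 3.11 in replicates 1, 2 and 3. The SD of the log2 ratio over the libraries was 0.11 for Krt8 to Epcam, where the median over 8434 genes was 0.17 to Krt8. Nrp2 of a lymphatic list and Cnn1 of a smooth muscle list lay about as near to Krt8, at 0.11 and 0.12. The other genes compared from those lists lay farther. Over the whole colon epithelium list the median SD to Krt8 was 0.16, close to that of all 8434 genes. Muc2 and Tff3 (0.25 each), Car1 (0.43), Slc26a3 (0.45) and Aqp8 (0.69) of that list lay farther than the median over all genes. For Krt19 to Epcam the SD was 0.058, and no median over genes was taken for Krt19. Per Vil1, the villin gene of the brush border, Krt8 stood at 19.6, 17.1 and 17.0 and Krt19 at 19.8, 15.1 and 14.9, with SDs of 0.12 and 0.23 for the log2 ratios. Krt18 gave 0.481, 0.394 and 0.396 per Epcam, and Krt7 0.188, 0.155 and 0.168. Krt18 and Krt7 were thus highest per Epcam in replicate 1, and Krt8 in replicate 3. The SD of the log2 ratio to Epcam was 0.16 for Krt18 and 0.14 for Krt7. To Pecam1, an endothelial gene, it was smaller, at 0.053 for Krt18 and 0.099 for Krt7. For Krt8 and Krt19 the SD to Pecam1 was larger than to Epcam, at 0.25 and 0.15. Pecam1 was the only endothelial gene set against the keratins, and its list was not uniform. Replicate 3 over the mean of replicates 1 and 2 was 0.907 for Pecam1, within a range from 0.491 (Ecscr) to 1.79 (Esam). Nearness to Pecam1 therefore does not stand for nearness to endothelial genes as a group.

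Krt20 did not keep a constant ratio to Epcam, at 0.178, 0.183 and 0.284. Markers of surface colonocytes were set beside it. Aqp8, a water channel, had 52.1, 43.9 and 121 TPM, and Slc26a3, a chloride exchanger, had 56.3, 100.3 and 127 TPM. Both were highest in replicate 3, as was Krt20, and 7 of the 12 epithelial genes were highest there, against 40.5% of all expressed genes. After median-of-ratios scaling 5 of the 12 were highest there, against 33.9%. Car1, the most abundant of the 12, was highest in replicate 2 instead, with 2875, 5707 and 5629 TPM. The SD of the log2 ratio of Krt20 was 0.45 to Car1, 0.42 to Aqp8, 0.36 to Slc26a3, 0.38 to Epcam and 0.25 to Vil1.

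In replicate 3 Vim was lowest, as were most endothelial genes, while most markers of other cells that make vimentin were highest. This contrast rests on replicate 3. From replicate 1 to 2 Vim fell, and the summed pan-endothelial (1411 to 1226 TPM), fibroblast (199 to 134) and macrophage and dendritic genes (304 to 225) fell too. In the lymphatic identity list, the median of TPM over the gene's own mean rose from 1.11 to 1.15. After median-of-ratios scaling this median fell from 1.22 to 1.09. The median TPM of the list fell from 87.0 to 81.7. Of 12 pan-endothelial genes, 11 were lowest in replicate 3, as Vim was, and of 11 lymphatic identity genes 10 were, against 22.9% of all expressed genes. After median-of-ratios scaling these counts were 11 and 11, against 33.9%. The lymphatic exception under TPM was Nrp2, a co-receptor for vascular growth factors, with 23.3, 28.9 and 26.8 TPM. The pan-endothelial genes summed to 1411, 1226 and 870 TPM in replicates 1, 2 and 3. Cldn5, a tight junction gene of endothelium, had 399, 324 and 205 TPM, Ecscr 263, 230 and 121, and Egfl7, a matrix protein of vessels, 245, 202 and 157. Esam, an adhesion molecule of endothelium and platelets, was the exception, with 22.0, 14.4 and 32.6 TPM.

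The ratio of Vim to Egfl7 was 3.05, 3.21 and 3.25, with an SD of 0.047 for its log2 value. The SD of the log2 ratio of Vim was 0.030 to Tie1 and 0.027 to Robo4, both endothelial receptors. Vim to Pecam1, which encodes the sort marker CD31, gave 6.38, 5.96 and 4.96, and Vim to Lyve1 1.38, 1.06 and 1.62. The median SD of the log2 ratio of Vim over a list was 0.18 for lymphatic identity and 0.21 for pan-endothelial genes, 0.51 for colon epithelium, 0.93 for smooth muscle and pericyte genes and 1.27 for fibroblast genes. Over all 8434 genes with a mean TPM of 10 or more it was 0.38. For the keratins, the SD to Vim was 0.20 for Krt18, 0.24 for Krt23 and 0.27 for Krt7. It was 0.33 for Krt19, 0.43 for Krt8 and 0.68 for Krt20. Endothelial Esam stood at 0.79. Cd14 of the macrophage and dendritic list stood at 0.21, but the median of that list was 1.05. Krt18 lay about as near to Vim as the median pan-endothelial gene, so closeness to Vim was not particular to endothelial genes.

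Fibroblasts, smooth muscle and macrophages also carry vimentin, and their markers were highest where Vim was lowest. All 10 fibroblast genes, all 10 smooth muscle and pericyte genes and 9 of 10 macrophage and dendritic cell genes were highest in replicate 3, against 40.5% of expressed genes under TPM. The counts were the same after median-of-ratios scaling, against 33.9%. The exception was Cd14, a receptor for bacterial lipopolysaccharide, with 63.7, 60.8 and 57.5 TPM. The fibroblast genes summed to 199, 134 and 501 TPM in replicates 1, 2 and 3, the smooth muscle and pericyte genes to 221, 175 and 405, and the macrophage and dendritic genes to 304, 225 and 597. Dcn, a fibroblast proteoglycan, had 71.2, 48.2 and 155 TPM, so the ratio of Vim to Dcn was 10.5, 13.5 and 3.28. The 10 lymphocyte genes, all highest in replicate 3, summed to 10.8, 12.4 and 35.8 TPM, and the 4 mesothelial genes to 1.33, 0.111 and 2.17. No marker gene of these lists was listed at 0 in all 3 libraries. The part of any of these cells in the level of Vim was not tested.

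**Figure D3:**
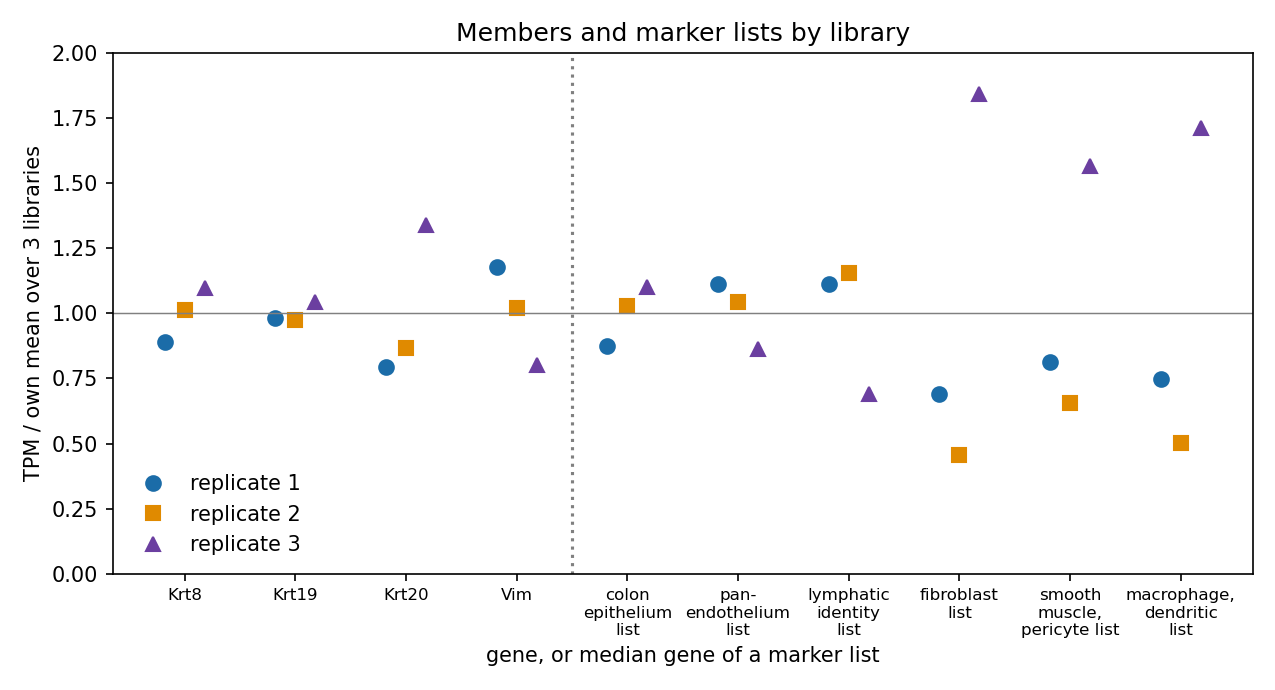
TPM divided by the gene's own mean over the 3 libraries (y axis) for 3 keratins, Vim and the median gene of 6 marker lists (x axis), with 1 point per library. Vim is lowest in replicate 3, as are the endothelial and lymphatic lists, while Krt20 and the fibroblast, smooth muscle and macrophage lists are highest there.

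The genes whose profile lay nearest to Krt8 and Vim were sought among the 8434 genes, by the SD of the log2 ratio over the 3 libraries. For Krt8 these were Ttc5, Pi4kb, Rxrb, Rab21 and Eml2, with SDs between 0.0024 and 0.0063, and for Vim they included Brms1, Bst2, Grap and Lysmd2, with SDs between 0.0072 and 0.018. With only 3 libraries and this many genes, close profiles are common: 27.1% of the genes lay nearer to Krt8 than Krt19 did. Of the genes compared, 93.9% lay nearer to Krt8 than Vim did, and 77.4% nearer than Krt18 did.

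The rest of the keratin family lay near the floor. Of the 49 other keratin genes in the tables, 5 were expressed (10.2%, against 53.4% of all genes), and none exceeded 4.97 TPM in any library. These were the epidermal keratins Krt14 (2.93 ± 0.52 TPM) and Krt10 (2.46 ± 0.15) and the hair keratins Krt36 (2.55 ± 2.12), Krt87 (2.22 ± 0.18) and Krt84 (1.14 ± 0.090) (SD, n = 3). Krt36 had 4.97 TPM in replicate 1, against 1.66 and 1.01 in the others. Of all 55 keratin genes, 20 were listed at 0 in every library, and the 6 simple keratins carried 99.7%, 99.8% and 99.8% of the keratin TPM.

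Vim also exceeded the other type III and type IV filament genes examined. Des, the desmin gene of muscle, had 16.1, 14.9 and 21.7 TPM, so Vim exceeded it 46.5-fold, 43.7-fold and 23.4-fold. Synm (synemin) averaged 4.82 ± 0.080 TPM, Gfap of glia 1.31 ± 0.42 and Nes (nestin) 1.24 ± 0.97 (SD, n = 3). The neuronal filament genes Nefl (0.668 ± 0.310), Nefm (0.317 ± 0.156), Prph (0.180 ± 0.148), Nefh (0.174 ± 0.0924) and Ina (0.0494 ± 0.0312) averaged under 1 TPM. Of these 9 genes, 2 (Des and Synm) were expressed in all libraries. Nuclear lamins, which nearly all cells carry, averaged 249 ± 16.5 TPM for Lmna, 41.6 ± 6.38 for Lmnb1 and 37.0 ± 7.21 for Lmnb2, so Krt8 stood 15.1 ± 0.818-fold and Vim 2.58 ± 0.643-fold above Lmna.

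Genes that anchor filaments were all expressed, at levels far below Krt8. Of the plakins, which link filaments to junctions and to each other, Dsp (desmoplakin) averaged 54.9 ± 20.4 TPM, Macf1 53.8 ± 5.57, Dst 34.9 ± 3.75, Plec (plectin) 30.5 ± 11.3, Eppk1 (epiplakin, which binds keratins) 11.5 ± 5.93, Evpl 9.74 ± 3.10 and Ppl 3.22 ± 0.633 (SD, n = 3). Of the desmosome genes, Jup averaged 79.1 ± 5.96 TPM, Dsg2 58.8 ± 21.3, Dsc2 54.3 ± 12.7, Pkp3 42.9 ± 4.36, Pkp2 26.3 ± 4.02, Pkp4 24.3 ± 2.95 and Pkp1 15.0 ± 2.93. All 14 genes were lowest in replicate 1, as were 63.2% of expressed genes, and 12 of 14 were lowest there after median-of-ratios scaling, against 39.3%.

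Transcript length moved with this pattern. Among expressed genes, log2(TPM + 1) in replicate 1 minus the mean of replicates 2 and 3 had a median of 0.076 for transcripts of up to 1000 bases, -0.17 for 2000 to 4000 bases and -0.51 above 8000 bases. Dsp (9592 bases, -1.05), Plec (15455 bases, -1.05), Eppk1 (12332 bases, -1.45) and Dsg2 (5766 bases, -1.03) lay below the medians of their length. Macf1 (23495 bases, -0.19) and Dst (23279 bases, -0.26) lay above theirs. The members have longest annotated transcripts of 1437 (Krt18) to 4094 bases (Krt7), with Krt8 at -0.24, Krt20 at -0.43, Krt18 at 0.20, Krt7 at 0.14 and Vim at 0.38 on this scale. The part of length in these values was not tested.

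**Figure D4:**
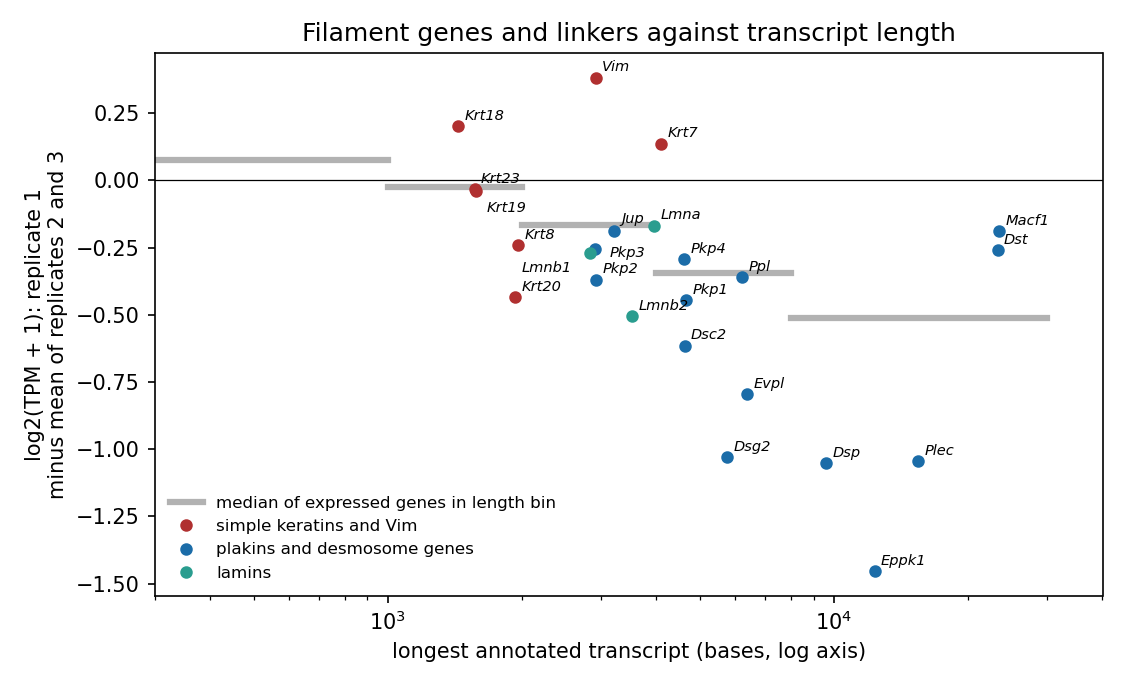
Difference in log2(TPM + 1) between replicate 1 and the mean of replicates 2 and 3 (y axis) against the longest annotated transcript in bases (x axis, log axis) for the members, the plakin and desmosome genes and the lamins, with grey bars for the median of expressed genes per length bin. Dsp, Plec, Dsg2 and Eppk1 lie at or below -1.03, while Vim, Krt18 and Krt7 lie above 0.

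Copies of 2 members could share reads with them. A processed pseudogene of Krt8 (Krt8-ps) matched its transcript at 98.6% identity over 941 bases, and the pseudogene Gm5200 matched that of Krt18 at 90.45% over 1267 bases. The values of Krt8 and Krt18 are uncertain to that extent. No other member had such a match among GENCODE transcripts at 90% identity over 200 bases or more.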

How the data were processed

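Per the file headers, the authors deposited TPM values, 1 table of 24091 genes for each of 3 libraries. The submitters' processing notes name mm10, Cell Ranger 6.0.1 and HTSeq; how TPM was computed is not given in the sources used here. The members and gene lists were chosen with earlier results of these data known. Coordinates and promoter windows come from RefSeq on GRCm38.p6 (24045 IDs matched), and lengths are of the longest transcript per gene in GENCODE M21 (23509 genes). Differences were taken on log2(TPM + 1) within a library and tested by exact sign-flip permutation. The SD over libraries was ranked within 20 bins of mean expression (13606 genes at a mean TPM of 1 or more). These steps were tested on simulated data. Named are all members, other keratins at a mean TPM of 1 or more, all listed filament and linker genes, the 5 nearest profiles (1 gene that this rule names is not reported here), and those of the 3 highest genes per marker list, or of genes in a ratio, that bear on a member. Esam, Nrp2, Cnn1, Prox1, Cd14, Muc2, Tff3, Tie1, Robo4 and the single-marker ratios were chosen after their values were seen. Alternatives were other pseudocounts and scalings, TPM minimums of 0.5 and 5, and leaving out each library. Tools were blastn 2.17.0, matplotlib 3.10.9, scipy 1.17.1, pandas 2.3.3 and numpy 2.4.6 under Python 3.11.15.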

Additional observations from a re-analysis of the deposited data

How the results depend on the processing

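The 6 differences from Vim and that of Krt8 from Krt18 kept their sign under a pseudocount of 0.1 or none, median-of-ratios scaling, TPM without ribosomal protein genes and Mir6236, and each left-out library. Without 1 library, the difference from Vim (log2) ranged from 2.36 to 2.78 for Krt8, 2.27 to 2.60 for Krt19, -0.50 to -0.32 for Krt18, -1.76 to -1.11 for Krt20, -1.85 to -1.61 for Krt7 and -5.88 to -5.66 for Krt23, where 2 libraries allow no p below 0.5. The keratin sum minus Vim ranged from 3.49 to 3.87 and type I minus type II from 0.027 to 0.12. As means of log2(TPM + 1) per gene these became -0.70 and -1.72, and without Krt8 and Krt18 type I minus type II was 4.26, since Krt7 is then the only type II gene. At a TPM of 5, 6 keratins were expressed in place of 11. The median percentile of the members' SD was 58.4, with 75.7 after median-of-ratios scaling and 59.6 to 69.6 without 1 library. No paired analysis was possible because the samples form 1 group. TPM keeps no depth, so counting error could not be separated from the spread between libraries.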
